A study of Solanum lycopersicum with 95 samples.

Results

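Among genes that met the conditions below, the 200 genes described here had the largest rise from 0 to 96 h in the fruits of control plants. They were chosen from the No FR fruits of 0, 24, 48 and 96 h: a gene needed a mean of at least 5 CPM (counts scaled to a library total of 1000000) at 96 h and group means that climbed from each of these time points to the next, and genes were then ordered by the log2 ratio of the 96 h to the 0 h mean, with 1 CPM added to each. Of 34075 genes in the count table, 27385 had a count in any library, 13985 reached 5 CPM in No FR fruits at 96 h, 1704 also met the order, and the 200 of highest ratio were kept and are called the members. Since these 4 groups of No FR fruits chose the members, their values are given as a description with no test. The tests concern libraries that had no part in the choice, namely all fruits under Leaf FR, the No FR fruits of 6 and 12 h, and all leaves.

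All plants were tomato of the cultivar Foundation and had equal red and white light before the treatment began. In the Leaf FR plants far-red light (FR) was added to the leaves, stem and apex only, so the fruits of both groups received no added FR, and the No FR plants received none on any organ. Fruits were the first of the second truss, immature green and about 10 days past anthesis at 0 h, and leaf samples were a leaflet of the leaf above that truss. Samples were taken at 0, 6, 12, 24, 48 and 96 h, those of 0 h before FR began in the Leaf FR plants. Each organ, treatment and time point had 4 libraries from different plants, except Leaf FR leaves of 12 h with 3. This gave 95 libraries of 14769415 to 17957406 counts. In a library of this size 1 count is near 0.06 CPM. RNA came from ground organs, so more cells of a type and more RNA per cell cannot be told apart, and the organ labels were not checked against marker genes, for which no annotation was used.

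A tomato fruit of this age leaves the phase in which most of its cells divide and enters the phase of cell expansion. In these days the pericarp and the tissue around the seeds enlarge, starch builds up for later use, a cuticle is laid down and the embryos begin to form, and each of these processes runs with its own set of genes. None of the 200 members is among the genes that the study's tables of hormone and carbohydrate genes name, and the count table holds IDs only, so members are given by their tomato gene ID (Solyc, the chromosome number, g and the order on the chromosome) and their function is left out. Genes that the study does name are used as points of reference below.

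In No FR fruits the members together took up 0.54% of all counts at 0 h and 1.82% at 96 h. The 4 libraries of 96 h lay wholly above those of 0 h for 192 members, against 9.27% of all genes, a count that the choice itself favoured. The members' log2 ratio of 96 to 0 h had a median of 1.77 and reached from 1.23 to 5.80. Most members made their main step on the second day: 147 members made their largest step from 24 to 48 h, 33 from 48 to 96 h and 20 from 0 to 24 h, with median steps of 0.84, 0.56 and 0.46. At 96 h the members ranged from 5.02 to 4250 CPM with a median of 19.3, and 52 lay under 10 CPM. The limit of the choice was not a gap: Solyc06g050430.3 and Solyc01g057000.3 were the last members, with ratios of 1.234 and 1.2315, and Solyc03g025660.1 and Solyc02g078660.4 the first genes left out, with 1.231 and 1.2281.

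The members of the 3 highest ranks show what the choice selected. Solyc04g078325.1 was at 0, 0.51, 0 and 0.12 CPM in the No FR fruits of 0 h and at 39.2, 13.6, 89.6 and 112 CPM in those of 96 h. Solyc10g085540.1 went from 4.50, 3.96, 0.41 and 0.18 CPM to 80.5, 77.3, 50.4 and 102 CPM. Solyc02g062313.1 was at 137, 186, 5.41 and 26.5 CPM at 0 h and at 1334, 1228, 927 and 1822 CPM at 96 h. The first gene was all but silent before it rose, whereas Solyc02g062313.1 was already present and differed widely between fruits of the same hour. The genes of highest level at 96 h were Solyc05g051260.3, with a mean of 4250 CPM, and Solyc08g065790.3, with 2952 CPM.

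Fruits of the same group differed widely in these genes. The member level of a library is taken here as the median of log2(CPM + 1) over the 200 members. In No FR fruits the 0 h group stood at 2.28 ± 0.46 (SD, n = 4), followed by 2.44 ± 0.29 and 2.53 ± 0.68 on the first day (6 and 12 h), 2.73 ± 0.78 after 24 h, 3.66 ± 0.60 after 48 h and 4.31 ± 0.21 after 96 h. The 12 h fruits, which had no part in the choice, stood at 3.22, 3.00, 1.84 and 2.05, so that replicates 1 and 2 lay above all fruits of 0 h and replicates 3 and 4 among them. Over the 8 fruit groups that did not choose the members, the SD of log2(CPM + 1) between replicates had a median of 0.59 for the members and of 0.14 for all 13985 genes of at least 5 CPM.

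In Leaf FR fruits the 0 h group had a member level of 2.26 ± 0.56 (SD, n = 4), the groups of 6 and 12 h 2.70 ± 0.41 and 2.42 ± 0.37, and those of 24, 48 and 96 h 2.62 ± 0.76, 3.95 ± 0.29 and 3.46 ± 0.58. The highest mean was thus that of 48 h and not that of 96 h. The highest library of a group bears on the comparisons between these time points and is called the high library below. At 0 h it was replicate 3, at 3.06 with the others at 1.86 to 2.19. The fruits of 24 h were spread over 2.76, 1.70, 2.49 and 3.53, with replicate 4 highest, and at 48 h replicate 3 was at 4.38 and the others at 3.75 to 3.84. At 96 h replicate 2 was at 4.23 and the others at 2.91 to 3.57. This last library lay within the range of the No FR fruits of 96 h, 4.18 to 4.63, and the other 3 below it.

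**Figure D1:**
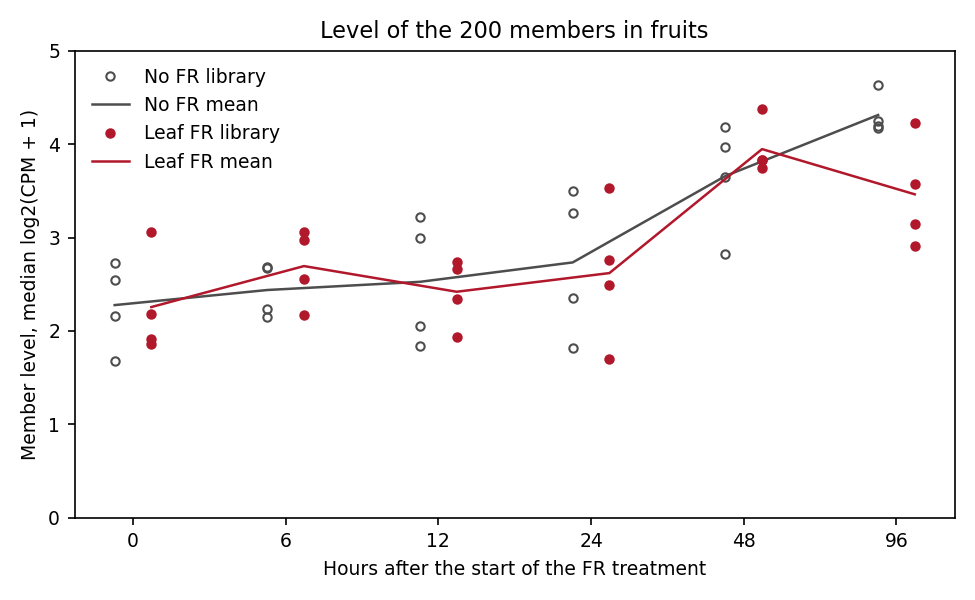
Level of the 200 members in each of the 48 fruit libraries, as the median of log2(CPM + 1) over the members (vertical axis), by hours since far-red began (horizontal axis, equal steps, not to scale). Points are libraries and lines join the means of 4 libraries; the Leaf FR mean is highest at 48 h (3.95), while the No FR mean climbs to 4.31 at 96 h.

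To follow the members in fruits that did not choose them, Leaf FR fruits of 96 h were compared with those of 0 h. All members but 1 were tested, and 76 were higher at 96 h (38.2%) and 0 lower by edgeR's test at an adjusted P-value of 0.05, where 6.9% of all 18277 genes tested were higher and 8.02% lower. The Log2FC was positive for 196 members and negative for 3, with a median of 1.27 (quartiles 0.84 and 2.01), against a median of 0.00 over all genes. The 4 libraries of 96 h lay wholly above those of 0 h for 56 members, against 9.86% of all genes. Thus nearly all members moved in the direction that chose them, but most did not pass the test.

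The number of members called depended on the libraries compared. It was 149 without the high 0 h replicate 3, where 2491 of all genes were higher, in place of 1261 with every library. It was 11, 17 and 14 without 0 h replicates 1, 2 and 4, with 227, 346 and 235 genes higher. It was 40 without the high 96 h replicate 2, and 43 and 29 without 96 h replicates 3 and 4, with 755, 701 and 315 genes higher. Each of these fits with fewer members called also had fewer of all genes higher than the 1261. Without both high libraries together, a setting chosen after the values were seen, it was 145, and 13.4% of all genes were higher and 12.7% lower. No member was called lower in any of these fits. Leaving out the highest library of a group lowers the group's mean and narrows its spread for the members. At 0 h this favours a rise by itself, so nothing is read from the counts of 149 and 145. All 40 calls made without 96 h replicate 2 were among the 76.

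**Figure D2:**
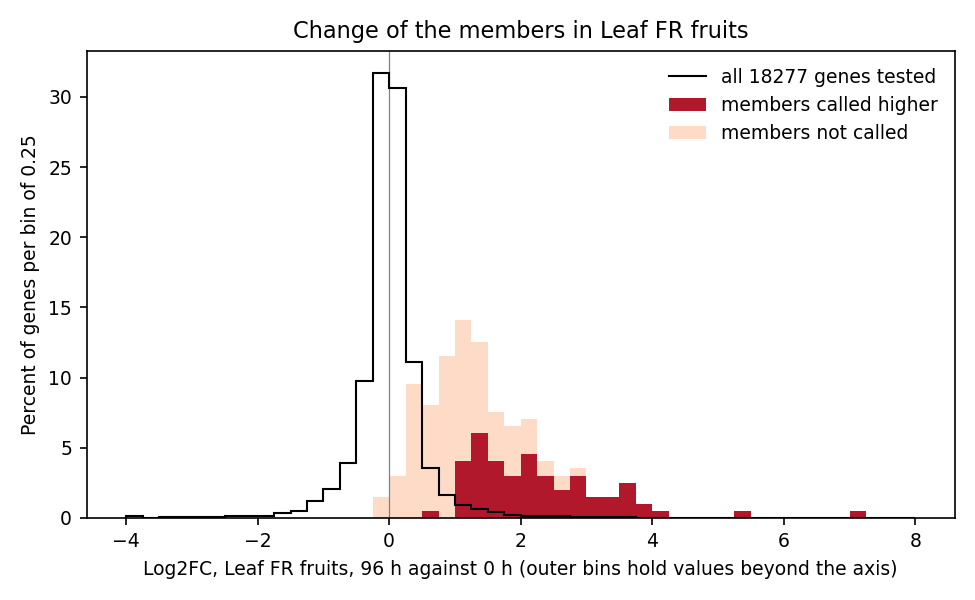
Log2FC of Leaf FR fruits at 96 h against 0 h (horizontal axis) and percent of genes per bin (vertical axis), for all 18277 genes tested (line) and the members tested (filled bars, stacked by call). The members lie mostly above 0, with a median of 1.27, and the 76 called reach from 0.75 to 7.10.

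The largest rise was that of the member of highest rank. Solyc04g078325.1 was at 0.06, 0.19, 0.52 and 0 CPM in the Leaf FR fruits of 0 h and at 2.63, 61.7, 19.4 and 27.6 CPM in those of 96 h. Every fruit of 96 h was above every fruit of 0 h, and the Log2FC was 7.10 ± 1.12 (SE, adjusted P = 0.00857, edgeR). This call was kept in each alternative that was run. The 0 h replicates 1 and 4 had at most 1 count, so the size of the fold is poorly set.

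Solyc07g017950.3 was just as low at 0 h, with 0.06, 0, 0.29 and 0 CPM, and stood at 0.92, 6.86, 2.05 and 5.02 CPM at 96 h (Log2FC 5.25 ± 0.91, adjusted P = 0.0104). Solyc10g080840.1 rose from 0.24, 0.62, 2.08 and 0.19 CPM to 9.91, 16.1, 7.04 and 25.8 CPM (Log2FC 4.21 ± 0.63, adjusted P = 0.00746). Neither gene's groups overlapped, and both calls were lost only with the replicate number as a block. Solyc10g075070.3 (3.96 ± 0.87, adjusted P = 0.0203) and Solyc05g013920.4 (3.77 ± 0.91, adjusted P = 0.0263) completed the 5 largest changes. In both of these genes the 0 h replicate 3 was the highest library of its group, at 3.76 and 1.22 CPM where the others were at most 0.31 CPM.

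Of the 20 members of highest rank, 19 were tested, all 19 had a positive Log2FC (2.04 to 7.10, median 3.17) and 14 were called higher. Solyc10g085540.1 was among those called, with 0.66, 0.06, 10.9 and 0.44 CPM at 0 h and 14.8, 70.9, 31.9 and 25.6 CPM at 96 h (3.53 ± 0.90, adjusted P = 0.0310). Solyc02g062313.1 was not called: it stood at 25.8, 20.5, 294 and 14.1 CPM at 0 h and at 253, 1296, 571 and 436 CPM at 96 h (2.85 ± 0.97, adjusted P = 0.0746). Here the high 0 h fruit lay above the lowest fruit of 96 h. The other members of this set with no call were Solyc10g054790.2, Solyc02g064850.2, Solyc08g083410.1 and Solyc05g018370.1, with Log2FC of 2.04 to 2.61 and adjusted P-values of 0.0527 to 0.131. The one not tested was Solyc02g062317.1, which had too few counts in these groups.

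**Figure D3:**
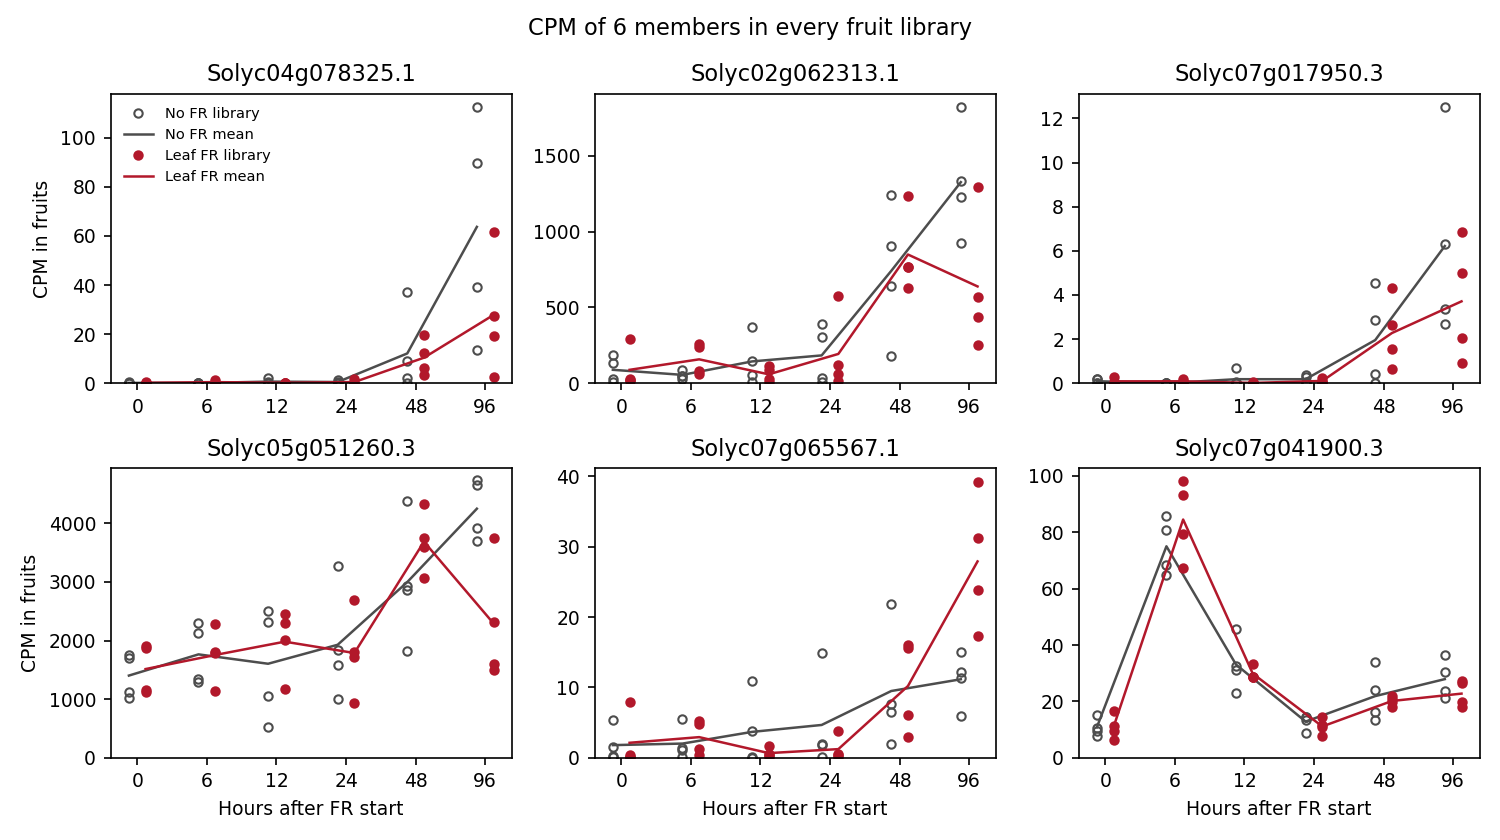
CPM (vertical axes) of 6 members in every fruit library, by hours after FR start (horizontal axes, equal steps, not to scale), with points for libraries and lines through the means of 4. Solyc04g078325.1 and Solyc07g017950.3 are near 0 until 24 h, Solyc05g051260.3 is at 3074 to 4328 CPM in Leaf FR fruits of 48 h and lower in most of those of 96 h, Solyc07g065567.1 is highest in Leaf FR fruits of 96 h, and Solyc07g041900.3 is highest at 6 h in both treatments.

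At the other end, the members of smallest change from 0 to 96 h under Leaf FR included genes of high level. Solyc08g065790.3 was at 1780, 1045, 1403 and 1027 CPM at 0 h and at 801, 1890, 1488 and 880 CPM at 96 h (Log2FC −0.05 ± 0.27, adjusted P = 0.918). Solyc10g077080.3 was at 323, 185, 238 and 191 CPM and at 138, 300, 249 and 163 CPM (−0.13 ± 0.25, adjusted P = 0.739). The groups of 0 and 96 h overlapped in these genes, whereas their fruits of 48 h, at 1840 to 2911 and at 299 to 511 CPM, were all above the 0 h fruits for the first and, but for 1 fruit, for the second. Solyc11g011290.3, Solyc09g074530.3 and Solyc10g012130.1 were the other members with a Log2FC between −0.05 and 0.05 (−0.01, 0.03 and 0.03).

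To see when the members rose under Leaf FR, the steps between the time points were tested one by one. From 0 to 24 h 0 of 191 members tested were called, as were 0.0% of 18225 genes, with 777 genes and 4 members at an unadjusted P-value under 0.05 (DESeq2 called 26 genes and 0 members). The median Log2FC of the members was 0.41, and 172 were positive. Without the high 0 h replicate 3, a choice that favours a rise by itself, 4 members were called. The count over all genes is not given for this fit, so nothing is read from it. From 24 to 48 h 41 of 200 members were higher and 0 lower, against 1.15% and 1.03% of 18398 genes. All 200 had a positive Log2FC in this step (0.28 to 6.35, median 1.23), and the libraries of 48 h lay wholly above those of 24 h for 103 members, against 5.86% of all genes.

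This count of 41 rested on single libraries. It was 0 without any of the 24 h replicates 1, 2 and 3, where 0 of all genes were higher as well, and 162 without the high 24 h replicate 4, where 765 genes were higher, in place of 211 with every library. It was 24, 17, 5 and 8 without 48 h replicates 1 to 4 in turn, with 127, 97, 32 and 45 genes higher. Leaving out the highest 24 h library favours a rise by itself, so nothing is read from the count of 162. DESeq2 called 84 members and 583 genes higher. The median Log2FC of the members stayed between 1.00 and 1.65 over all these settings. Among the members called were Solyc04g078325.1 (4.41 ± 0.81, adjusted P = 0.0292) and Solyc07g008210.4, which went from 6.00, 6.58, 4.84 and 6.14 CPM to 18.5, 13.9, 33.2 and 24.3 CPM (1.93 ± 0.24, adjusted P = 0.0190).

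Fruits of 48 h were also compared with those of 0 h, a comparison added after the other values were seen. Of 200 members 147 were higher and 0 lower, against 2.47% and 1.66% of 18348 genes, all 200 Log2FC were positive and their median was 1.70. The 48 h libraries lay wholly above the 0 h libraries for 163 members, against 6.77% of all genes. Without 0 h replicates 2 or 4, 0 members were called higher, with 0 and 1 of all genes. Without 0 h replicate 1 or 48 h replicate 3 it was 10 members, with 0.175% and 0.115% of all genes higher, and without 48 h replicates 1 or 2 it was 75 members, with 1.08% of all genes in both fits. Without 0 h replicate 3 it was 192 members, with 6.85% of all genes higher and 5.89% lower. That fit leaves out the highest 0 h library, which favours a rise by itself. With every library, Solyc05g051260.3, the member of highest level, is an example of a member called higher. It was at 1867, 1158, 1909 and 1124 CPM at 0 h and at 3600, 3745, 4328 and 3074 CPM at 48 h (1.27 ± 0.19, adjusted P = 0.0198).

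From 48 to 96 h the means of most members fell under Leaf FR. The Log2FC was negative for 164 members and positive for 36, with a median of −0.44, but 0 of 200 members were called in either direction, as were 0.0% of 18360 genes (3008 genes and 62 members at an unadjusted P-value under 0.05 in edgeR, 399 genes and 7 members called by DESeq2). Without the high 96 h replicate 2, 31 members were lower and 0 higher, with a median of −0.92, and of all genes 168 were lower and 33 higher. Leaving out the highest 96 h library favours a fall by itself, so nothing is read from the calls of this fit. In it Solyc05g051260.3 fell by 0.99 ± 0.16 (adjusted P = 0.0465): it stood at 1595, 2321 and 1497 CPM in the other 3 fruits of 96 h and at 3754 CPM in replicate 2. Only 3 members had all 48 h libraries above all 96 h libraries, against 4.31% of all genes.

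The choice fixed 0, 24, 48 and 96 h as the rising order in No FR fruits, and 31 of the 200 members kept it under Leaf FR, 182 kept it as far as 48 h, 164 had their highest of these means at 48 h and 36 at 96 h. At 96 h 189 members were lower under Leaf FR than under No FR, with a median log2 ratio of the means of −0.80, while at 48 h 169 were higher (median 0.17), at 24 h 64 (median −0.07) and at 0 h 98 (median 0.00). These differences share the No FR libraries that chose the members, which had to be high at 96 h, and were therefore not tested. Without Leaf FR replicate 2 the median at 96 h was −1.22, and without replicates 1, 3 or 4 it was −0.64, −0.77 and −0.69. The 4 No FR fruits lay wholly above the 4 Leaf FR fruits at 96 h for 36 members, against 4.49% of all genes, a count from which nothing is read for the same reason.

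A few members stood on the other side at 96 h. Of the 11 with a higher mean under Leaf FR, 3 exceeded a log2 ratio of 0.5, and they are named because their values were seen. Solyc07g065567.1 was at 23.8, 39.2, 17.4 and 31.2 CPM under Leaf FR and at 12.2, 5.99, 15.1 and 11.3 CPM under No FR (log2 ratio of the means 1.25). Solyc08g068690.1 was at 22.7, 23.9, 25.8 and 26.8 CPM against 10.1, 7.36, 15.4 and 16.9 CPM (0.94). Neither gene's treatments overlapped. Those of Solyc07g008210.4 did, at 26.8, 57.7, 46.7 and 63.0 CPM against 16.8, 28.9, 29.7 and 36.6 CPM (0.77). These values share the No FR libraries that chose the members, so they were not tested and nothing is read from the lack of overlap.

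Before 24 h no member was called as different between the light treatments. The log2 ratio of the means, Leaf FR to No FR, had a member median of 0.31 at 6 h and −0.20 at 12 h. A joint fit of both hours averages these opposite directions. With the fruits of 6 and 12 h in a single fit, 0 of 196 members and 0.0% of 18677 genes differed between Leaf FR and No FR (290 genes and 0 members at an unadjusted P-value under 0.05, 0 genes called by DESeq2), and the median Log2FC of the members was 0.10. From 6 to 12 h, which is from the afternoon to the end of the day, 1 of 190 members was lower and 0 higher under No FR (0.355% and 0.0984% of 18292 genes), and 5 were lower and 0 higher under Leaf FR (1.62% and 0.99% of 18382 genes). The median Log2FC of the members was 0.24 under No FR and −0.46 under Leaf FR. The difference between these changes, tested as an interaction that was added after the values were seen, was called for 0 of 196 members and 0 of 18677 genes (24 members and 1026 genes at an unadjusted P-value under 0.05). It was negative for 166 members, with a median of −0.67 against −0.01 over all genes.

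Solyc07g041900.3 was the member called in both treatments. It stood at 80.8, 85.8, 64.9 and 68.4 CPM at 6 h and at 45.8, 31.0, 23.0 and 32.5 CPM at 12 h under No FR (Log2FC −1.21 ± 0.18, adjusted P = 0.0184). Under Leaf FR it went from 93.1, 67.3, 98.1 and 79.4 CPM to 28.8, 28.8, 28.5 and 33.3 CPM (−1.56 ± 0.12, adjusted P = 0.000118). All fruits of 6 h were above all fruits of 12 h in both treatments, and its fruits of 96 h, at 17.9 to 36.5 CPM, were below those of 6 h as well. In leaves it was at 935 to 1219 CPM under No FR at 6 h. This gene met the rising order at the hour of day of the 4 time points that chose it, where it was at 7.88 to 15.3 CPM under No FR at 0 h. The other members lower at 12 h under Leaf FR were Solyc02g032910.3 (−1.62), Solyc02g086300.4 (−1.13), Solyc01g109090.2 (−1.01) and Solyc01g007220.4 (−0.65). The count of 5 was 1, 11, 3 and 3 without 6 h replicates 1 to 4 in turn, 8 without 12 h replicate 1 and 2 without 12 h replicates 2 or 4. The same counts over all genes are not given, so nothing particular to the members is read from these shifts. The No FR call of Solyc07g041900.3 was lost without 6 h replicates 1 or 2 or 12 h replicates 2 or 4.

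Across fruits the members varied as a block. Over the 32 fruit libraries that did not choose them, the first principal component of log2(CPM + 1) held 77.0% of the variance of the 200 members and 39.3% of that of the 13985 genes of at least 5 CPM. The median correlation between pairs of members was 0.78 against 0.02 between pairs of all these genes, and 1.49% of the pairs of members were negative against 47.5%. The libraries share their time points, so these values describe the data and are no test. Members that vary together are not independent, so the counts of members with a shared sign given above are descriptions too. With the member level, which the members themselves make up, 149 members had a correlation above 0.8 and 6 one below 0.5. The latter were Solyc02g077880.3 (−0.14), Solyc07g041900.3 (0.01), Solyc01g109090.2 (0.16), Solyc01g090810.4 (0.34), Solyc01g109800.2 (0.47) and Solyc06g059840.4 (0.48). The first 3 of these were highest at 6 h in Leaf FR fruits, at 268 to 435, 67.3 to 98.1 and 13.4 to 20.1 CPM.

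Members stood on all chromosomes, with 25 each on chromosomes 2, 7 and 8 and 4 on chromosome 12. Chromosome 7 held 12.5% of the members and 7.7% of the genes of at least 5 CPM, chromosome 8 12.5% and 7.42%, and chromosome 3 3.5% and 10.4%. IDs with chromosome number 0 held 4 genes of at least 5 CPM, 3 of them members. In 25 cases the next or previous gene ID was a member too. Another count was of runs of close IDs: 15 members formed 5 runs of 3, each spanning 3 to 5 IDs. How often other genes stand so close was not worked out, so no clustering is read from these counts. The run of Solyc02g081740.2, Solyc02g081750.1 and Solyc02g081760.2 had correlations of 0.99 between its genes over the 32 libraries, and all 3 were called higher in Leaf FR fruits from 0 to 96 h (2.66, 2.48 and 3.32). Solyc04g078325.1 was in a run over 5 IDs with Solyc04g078340.3, which was also called (2.85), and Solyc04g078370.3, which was not (1.07, adjusted P = 0.0824). The genes of the other runs were Solyc07g056704.1, Solyc07g056705.1 and Solyc07g056708.1 and then Solyc08g079330.2, Solyc08g079350.3 and Solyc08g079370.2. Counts of near-identical neighbours are uncertain, since a read that could come from more than 1 gene was shared out.

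In the run of Solyc02g062313.1, Solyc02g062317.1 and Solyc02g062320.3 the neighbours differed in their pattern over the libraries. Solyc02g062317.1 was at 6.20, 4.09, 11.6 and 0.12 CPM in Leaf FR fruits of 48 h and at 8.39, 11.8, 0.12 and 12.0 CPM in No FR fruits of 96 h. Its neighbours were at 628 to 1236 and at 134 to 245 CPM in the same Leaf FR fruits, the one with 0.12 CPM included.

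Most members were low or without a count in leaves. In leaves 15 of the 200 had no count in any of the 47 libraries, and 133 (66.5%) stayed under 1 CPM in every one, against 2.52% of the 13985 genes of at least 5 CPM in No FR fruits. A leaf library had a count for 79 to 115 members (median 91), a fruit library for 191 to 200. In Leaf FR plants at 96 h, all members but 1 were tested, and 162 were higher in fruits than in leaves and 19 lower, where 38.0% of 18973 genes were higher and 36.9% lower. The median Log2FC of the members was 8.27, or 6.92 with the 68 members at 0 in all 4 leaf libraries set to their lower bound. These counts are a description. A member had to reach 5 CPM in No FR fruits, which other genes did not, and the 68 at 0 in leaves entered the comparison only through their fruits, so their direction was fixed beforehand.

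**Figure D4:**
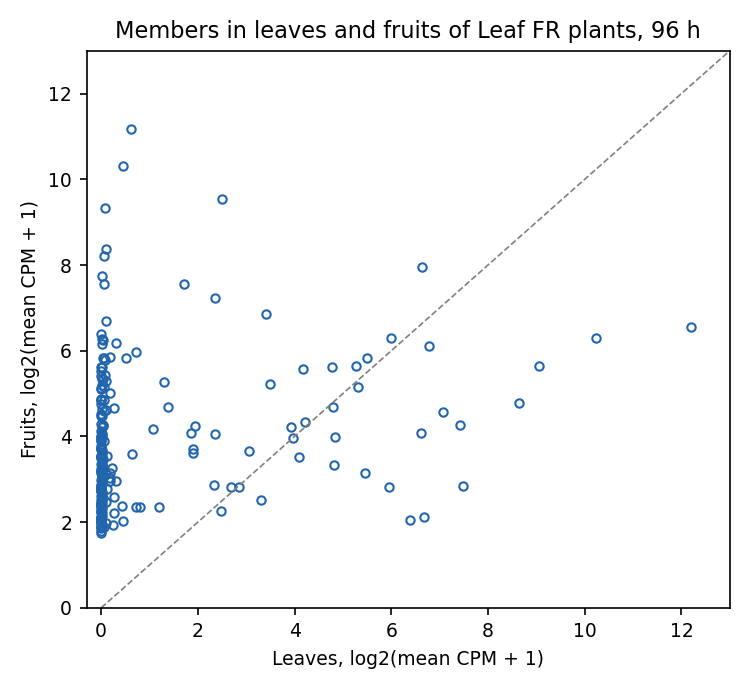
Mean level of each of the 200 members in leaves (horizontal axis) and fruits (vertical axis) of Leaf FR plants at 96 h, as log2(mean CPM + 1) over 4 libraries, with a broken line where both are equal. Most members lie at the left edge, near 0 in leaves, and a small set lies below the line.

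Solyc07g055790.3 is an example of a member with no count in these leaves, with 0 CPM in the 4 Leaf FR leaves of 96 h and 26.1 to 200.3 CPM over all fruits. A count of 0 in 4 libraries allows up to 3 counts, which is 0.046 CPM. Solyc10g077080.3 reached at most 0.43 CPM in any leaf and 55.0 to 577 CPM in fruits, and Solyc02g062313.1 at most 0.86 CPM in any leaf. On the other side Solyc09g075210.3 was the member of highest leaf level, at 289 to 6679 CPM with a median of 2536, and at 2.50 to 142 CPM in fruits (fruits against leaves under Leaf FR at 96 h, −6.21 ± 0.32, adjusted P = 8.37e-07). Solyc04g050440.3 (−5.52) and Solyc09g059240.3 (−5.34) followed. Hence the rise in fruits also took in genes that were higher in these leaves, with 19 members called so at 96 h under Leaf FR.

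To test whether the members rose in leaves over the same 4 days, leaves of 96 h were compared with those of 0 h. Under No FR 51 members had enough counts for the test, and 0 were called, as were 0.0% of 17492 genes (2985 genes and 11 members at an unadjusted P-value under 0.05, 631 genes and 6 members called by DESeq2). The median Log2FC was 0.13, with 30 positive and 21 negative. Under Leaf FR 6 of 53 members were higher and 5 lower, against 5.11% and 4.39% of 17557 genes, with a median of 0.17. The count of 11 fell to 5 to 9 without any of 7 of the 8 leaf libraries: 6 without 0 h replicates 1 or 3, 5 without 0 h replicate 2, and 7 without 96 h replicates 1 or 3. Without 96 h replicate 2 it was 12. Counts over all genes were not set beside these, so no change particular to the members is read from them. Members tested in leaves thus moved in both directions.

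The largest rise in leaves was that of Solyc08g076250.3. It had 0.06, 0, 0 and 0 CPM in Leaf FR leaves of 0 h, which is 1 count in all, and 14.8, 14.9, 7.48 and 3.55 CPM in those of 96 h (Log2FC 8.55 ± 0.80, adjusted P = 0.00294). The ratio of the pooled counts was 644.8, with an exact 95% interval for counting error of 115.3 to 25505, so the size of this fold is poorly set. In No FR leaves it was at 0 to 0.31 CPM in all 24 libraries, with a median of 0.06. Under Leaf FR the leaves of 6 h had 1.07, 2.26, 1.70 and 2.15 CPM and those of 12 h 6.76, 4.85 and 5.25 CPM. After 24 h the values were 11.1, 2.50, 10.8 and 11.4 CPM, and after 48 h 4.99, 7.58, 4.89 and 5.58 CPM. Each of these 19 libraries was thus above each No FR library, and over 6 to 96 h the Log2FC of Leaf FR against No FR was 6.22 ± 0.43 (adjusted P = 3.32e-13). Both calls were kept in each alternative run.

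**Figure D5:**
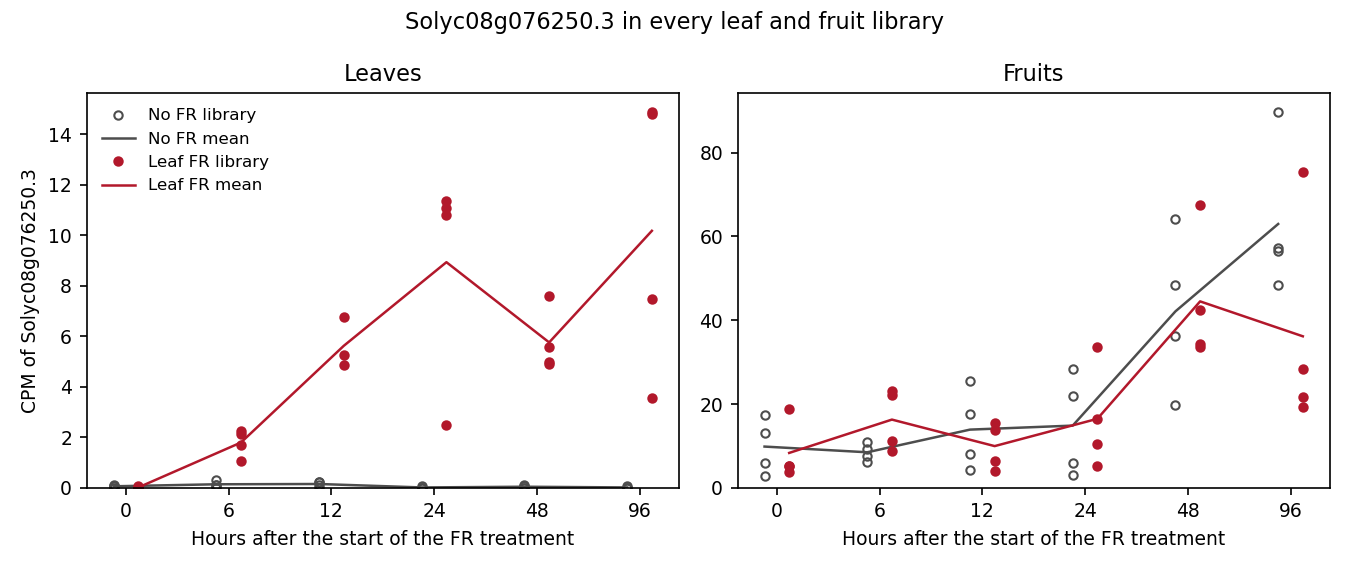
CPM of Solyc08g076250.3 in each leaf library (left) and fruit library (right), by hours since far-red began (horizontal axes, equal steps, not to scale), with points for libraries and lines through group means. No FR leaves stay at or below 0.31 CPM, Leaf FR leaves of 6 to 96 h lie between 1.07 and 14.9 CPM, and fruits of both treatments lie between 2.88 and 89.7 CPM.

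In fruits Solyc08g076250.3 moved with the other members. It was at 5.31, 5.30, 18.8 and 3.88 CPM at 0 h and at 19.2, 75.4, 28.5 and 21.6 CPM at 96 h under Leaf FR (2.11 ± 0.57, adjusted P = 0.0360), with replicate 2 apart from the others, and at 57.2, 56.6, 48.3 and 89.7 CPM at 96 h under No FR. Its correlation with the member level over the 32 libraries was 0.98. Its leaf change from 0 to 96 h differed between the treatments in a test of the difference itself (10.27 ± 1.70, adjusted P = 0.0376), and it was the only one of 60 members so called, against 0.0661% of 18159 genes. That test was added after the values were seen. Its size is poorly set, since No FR leaves and Leaf FR leaves of 0 h were at or near 0.

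Across leaves of 6 to 96 h 4 of 66 members were higher and 4 lower under Leaf FR than under No FR, against 2.63% and 1.48% of 19273 genes. Solyc07g008210.4 was the other member of large rise, at 2.44 to 66.1 CPM under Leaf FR (median 20.8) and 0.13 to 7.70 CPM under No FR (median 1.46; Log2FC 3.21 ± 0.33, adjusted P = 5.67e-09). Solyc09g010220.4 (1.38) and Solyc05g008290.4 (0.41) were higher too. Solyc11g066580.3 was at 0 to 0.37 CPM under Leaf FR and at 0 to 9.67 CPM under No FR (−5.07 ± 0.70, adjusted P = 4.74e-06), so that the treatments overlapped at 0. Solyc07g005190.3 (−0.69), Solyc07g016215.1 (−2.43) and Solyc04g078370.3 (−2.32) were lower too, and the calls of the last 2 were lost without replicate 1 or 3. The count of 8 was 4 without replicate 1 or 3, and the count over all genes is not given for these fits.

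Within Leaf FR leaves from 0 to 96 h, Solyc02g077880.3 rose from 98.1, 31.1, 89.1 and 72.9 CPM to 743, 2369, 1045 and 622 CPM (3.70 ± 0.51, adjusted P = 0.00927), with no overlap. It was at 387, 79.5, 301 and 44.1 CPM in No FR leaves of 0 h and at 907, 380, 702 and 930 CPM in those of 96 h. That change was positive too but not called (1.63 ± 0.67, adjusted P = 0.272), and the interaction was not called for this gene. Solyc01g109090.2 came next under Leaf FR (2.92 ± 0.59, adjusted P = 0.0236). Of the members that fell, Solyc07g016215.1 went from 55.8, 6.40, 2.77 and 14.0 CPM to 0, 0, 0 and 0.12 CPM, a ratio of 677.6 with an interval of 187.2 to 5601, and Solyc11g066580.3 from 1.68, 8.80, 5.86 and 0.39 CPM to 0 in all 4, which is at least 90.9-fold lower when a count of 0 is allowed 3 counts over the group. Solyc07g054920.2 fell from 1.82 to 3.40 CPM to 0.06 to 0.54 CPM (−3.51 ± 0.57, adjusted P = 0.0159). In No FR leaves Solyc07g054920.2 and Solyc11g066580.3 also had lower means at 96 than at 0 h, with Log2FC of −3.43 ± 0.92 and −3.99 ± 1.11 that did not pass the test (adjusted P = 0.214 for both), and Solyc07g016215.1 had a Log2FC of 0.71 ± 0.99 (adjusted P = 0.720).

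Genes with a named role give a point of reference for the same Leaf FR fruits. The study's tables list 48 genes of hormone pathways and of carbohydrate metabolism, all measured here and none of them a member. They were picked by the study on these samples for their response to Leaf FR, so their direction is no independent evidence. From 0 to 96 h under Leaf FR, 6 of the 21 hormone and growth genes were higher and 0 lower, against 6.9% and 8.02% of all genes. SlIAA19, an Aux/IAA repressor that auxin itself induces, changed by 2.08 ± 0.22 (adjusted P = 0.00484), and GA20OX1, a gibberellin 20-oxidase of gibberellin synthesis, by 1.02 ± 0.11 (adjusted P = 0.00494). Of the 27 carbohydrate genes 10 were higher and 0 lower: AGPase L1 and AGPase S1, subunits of the enzyme that makes ADP-glucose for starch, changed by 0.80 and 0.61, the invertase LIN9 by 1.01 and the sucrose synthase SUS3 by 0.70.

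Over the 32 fruit libraries, 5 of the 21 and 2 of the 27 had a correlation above 0.5 with the member level, where 9.92% of the genes of at least 5 CPM did, the members included. The highest were those of SlHDG7, a homeodomain gene (0.77), SlARF10A, an auxin response factor (0.71), and GA20OX1 (0.63). SUS3 was at 0.51, AGPase L1 at 0.36, LIN9 at 0.22 and the sucrose synthase SUS1 at −0.29.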

How the data were processed

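Reads were cleaned with SOAPnuke and mapped with Bowtie2 to the ITAG4.0 gene models, and the authors estimated counts per gene with RSEM. The deposited table holds these expected counts as whole numbers, used without further rounding. The normalized table was not used. CPM is a count scaled to a library total of 1000000. Members were found by the ranking given above, and they and the lists were chosen with earlier results of these data known.

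Differences were tested with edgeR's quasi-likelihood test (edgeR 4.0.16, R 4.3.3) and TMM normalization on the libraries compared. A gene needed 10 counts or more in 3 of them, and the Benjamini-Hochberg adjustment ran over every gene tested, with a threshold of 0.05. The SE of a Log2FC was derived from its F value. Fits over several time points had the time point as a term. The code was also run on simulated data, whose spread between replicates was below that of the leaf fits, so the leaf tests are not covered by it. Replicates are different plants. Library totals of 14769415 to 17957406 counts put 1 count near 0.06 CPM, and intervals and floors cover counting error only.

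Alternatives were DESeq2 (version 1.42.0), its size factors in edgeR, no low-count filter, the replicate number as a block, all time points of an organ in a single fit, each library left out, and other forms of the ranking. The comparison of 48 with 0 h, the fit without both high libraries and the interactions were added after seeing the data. Named genes are the 20 of highest rank, the 5 largest and 5 smallest changes from 0 to 96 h under Leaf FR, the 3 largest calls per direction in the leaf, organ, light and 6 to 12 h comparisons, the genes at the limit of the choice and runs of neighbours. The rest (such as Solyc05g051260.3, Solyc08g068690.1 and Solyc01g007220.4) were chosen after their values were seen. None of the gene IDs matched the annotation used here, so word lists, cell type markers, promoter motifs and sequences were not used.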

Additional observations from a re-analysis of the deposited data

Results flagged for a closer look

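Within the 12 fruit groups, the member level was examined for a library far from the other 3, which chance gives in about 1 of 20 groups. Leaf FR fruit replicate 3 of 48 h stood above its group, at 4.38 where the others were at 3.75 to 3.84, and No FR fruit replicate 4 of 96 h at 4.63 where the others were at 4.18 to 4.24. The high libraries of Leaf FR fruits at 0, 24 and 96 h did not pass this criterion.

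Leaf FR leaf replicate 2 of 24 h was far below its group for Solyc08g076250.3, at 2.50 CPM where the others were at 10.8 to 11.4 CPM. The change of this gene from 0 to 96 h in leaves differed between Leaf FR and No FR by 10.27 on the log2 scale in the test of the interaction. This size is poorly set, since No FR leaves reached at most 0.31 CPM and Leaf FR leaves of 0 h were near 0.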

How the results depend on the processing

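The median Log2FC of the members kept its sign over all alternatives except in Leaf FR fruits from 0 to 24 h (−0.02 to 0.85), No FR fruits from 6 to 12 h (−0.04 to 0.46) and the light comparison of fruits at 6 and 12 h (−0.05 to 0.26). No called gene named here reversed. Counts of members called moved more. Where counts over all genes are given above they moved too, so these counts alone show nothing particular to the members. With the replicate block, for which no pairing was found (correlations of same-numbered libraries from −0.38 to 0.34), the count was 3 in place of 76 for Leaf FR fruits of 96 against 0 h, 23 in place of 0 for 96 against 48 h and 10 in place of 5 for 12 against 6 h. DESeq2 called 84 in place of 41 for 48 against 24 h, 7 for 96 against 48 h, 6 for No FR leaves, 2 for No FR fruits of 12 against 6 h and 14 for Leaf FR fruits of 12 against 6 h. Without the low-count filter 79 were called for 48 against 24 h, and without both high libraries, a choice that favours such calls, 145 for 96 against 0 h.

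Leaving out 1 library gave 11 to 149 for Leaf FR fruits of 96 against 0 h, 0 to 4 for 24 against 0 h, 0 to 162 for 48 against 24 h, 0 to 192 for 48 against 0 h, 0 to 31 for 96 against 48 h, 5 to 12 for Leaf FR leaves, 0 to 1 for No FR fruits and 1 to 11 for Leaf FR fruits of 12 against 6 h, and 4 to 10 for the light comparison of leaves. For 48 against 0 h, 0 to 1252 of all genes were called higher in these fits. The organ comparison stayed at 178 to 186. The cause of these shifts was not tested. Of the 200 members, 151 to 197 remained under other forms of the ranking.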
